A study of Homo sapiens with 36 samples.

Results

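The transcriptional response to androgen was measured in LNCaP control cells, the lines that carried neither GABPA nor a hairpin against it. LNCaP is an established human prostate cancer line that grows in response to androgen. R1881, or methyltrienolone, is a synthetic androgen. The comparison held 8 of the 32 samples of the series, which were read on 36 arrays. Of these 8, 4 had received 1 nM R1881 and 4 the same volume of ethanol as vehicle, in each case after 48 h in charcoal-stripped serum, which holds little steroid. On each side 2 samples came from cells with a non-targeting control (NT) and 2 from cells with the empty pLVX vector (EV), and the difference between R1881 and vehicle was averaged over NT and EV. The time between the addition of R1881 and the harvest is not given in the sources used here. Each control line is 1 stably transduced line, so a difference between NT and EV cannot be told apart from a difference between the transduced populations. The study's methods describe RNA from biological triplicates, whereas the labels give 2 numbered replicates for each group. Repeat arrays are marked apart from these, and the labels do not say whether the 2 replicates were separate cultures. The p-values weigh the variation between the numbered replicates of all 16 groups of the series, which shared 1 estimate of spread.

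The androgen receptor is a nuclear receptor that moves to the nucleus when it binds a steroid ligand and attaches to DNA at pairs of inverted half-sites. In luminal cells of the prostate it drives genes for secreted proteases such as the kallikreins, for vesicle transport and for metabolism, and it holds down other genes. LNCaP cells carry a mutated receptor that also accepts other steroids, and KLK3, the prostate-specific antigen measured in clinical blood tests, belongs to this programme.

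Levels are log2 intensities of 1 probe per gene after quantile normalization, so that 1 log2 unit is a doubling of the signal, and genes are compared here only with themselves. A gene was taken to lie above background when its mean level over all arrays passed 7.80 log2, the 95th percentile of 455 probes for olfactory receptors. This held for 9674 of 20046 genes (48.3%). Of 13 measured markers of luminal prostate epithelium, all 13 lay above background in these samples, between 9.12 and 13.01 log2, whereas 0 of 5 markers of basal epithelium did. The summed log2 levels of the basal markers spanned 35.54 to 35.90 in R1881 and 35.23 to 35.99 in vehicle samples. Markers of fibroblasts and smooth muscle (3 of 9 above background), immune cells (2 of 7) and endothelium (1 of 6) were low, with summed log2 levels of 66.94 to 68.56, 52.75 to 53.88 and 43.10 to 45.38 in R1881 samples, and the sums of all 4 vehicle samples lay within these ranges. Among all 27 markers of other cell types 1 was called, VWF, the von Willebrand factor, which was lower by 0.54 log2 with R1881 (limma, adjusted p = 0.000479). The first principal component of the 8 samples (46.7% of the variance) separated NT from EV, and the second (28.1%) separated all 4 R1881 from all 4 vehicle samples. Probes for the androgen receptor itself were not analysed here.

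R1881 changed 596 of 20046 genes (2.97%), of which 331 were higher (1.65%) and 265 lower (1.32%). A gene was called when its p from limma was under 0.05 after Benjamini-Hochberg adjustment, which covered all probes and 6 comparisons together. Of the genes above background 535 of 9674 were called (5.53%), 296 higher (3.06%) and 239 lower (2.47%). The rises reached further than the falls: 52 genes were higher by over 1 log2 and 14 lower by over 1 log2, with a median size of 0.52 log2 among the higher and 0.47 log2 among the lower genes. R1881 and vehicle samples did not overlap within NT or within EV, in the same direction, for 327 of the 331 higher and 250 of the 265 lower genes. Among all genes this held for 13.1%. The calls were made on these same samples, so the separation is largely set by the choice of genes and is no independent evidence.

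The largest rise was that of SGK1, a serine/threonine kinase of the PI3K pathway that steroid receptors induce. It stood at 10.16 and 10.36 log2 in R1881-treated NT cells and at 7.11 and 7.002 log2 in vehicle-treated NT cells, and in EV cells at 9.76 and 9.63 log2 against 7.26 and 7.28 log2. All 4 vehicle samples were under background, so that the rise was at least 4.51-fold (fitted difference 2.81 log2, SE 0.08, limma, adjusted p = 2.54e-20). PMEPA1, a membrane protein that dampens TGF-beta signalling, read 11.37 and 11.31 log2 in R1881 and 8.94 and 9.15 log2 in vehicle NT cells, with 12.37 and 12.39 log2 against 9.06 and 9.10 log2 in EV cells. The vehicle samples of PMEPA1 lay together and the R1881 samples of EV cells lay above those of NT cells. The difference was 2.80 log2 (6.96-fold, SE 0.10, adjusted p = 1.24e-17).

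FKBP5, a co-chaperone of steroid receptors, was at 11.92 and 11.93 log2 with R1881 and at 9.43 and 9.30 log2 with vehicle in NT cells, and at 12.03 and 11.97 log2 against 9.29 and 9.18 log2 in EV cells. The 4 samples of each treatment lay close together whichever the vector, and it rose by 2.66 log2 (6.33-fold, SE 0.08, adjusted p = 1.5e-19). TMPRSS2, a transmembrane serine protease whose promoter is fused to ERG in many prostate tumours, gave 13.17 and 13.03 log2 against 10.27 and 10.33 log2 in NT cells, and 13.56 and 13.58 log2 against 11.09 and 11.18 log2 in EV cells. Its EV samples were higher than its NT samples under both treatments, and it rose by 2.62 log2 (6.13-fold, SE 0.09, adjusted p = 3.68e-18). SLC45A3, the membrane transporter prostein, was 12.64 and 12.67 log2 against 10.94 and 10.78 log2 in NT cells and 12.70 and 12.56 log2 against 9.93 and 9.89 log2 in EV cells. Its R1881 samples were alike in NT and EV, its vehicle samples lower in EV, and its mean rise was 2.26 log2 (4.78-fold).

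**Figure D1:**
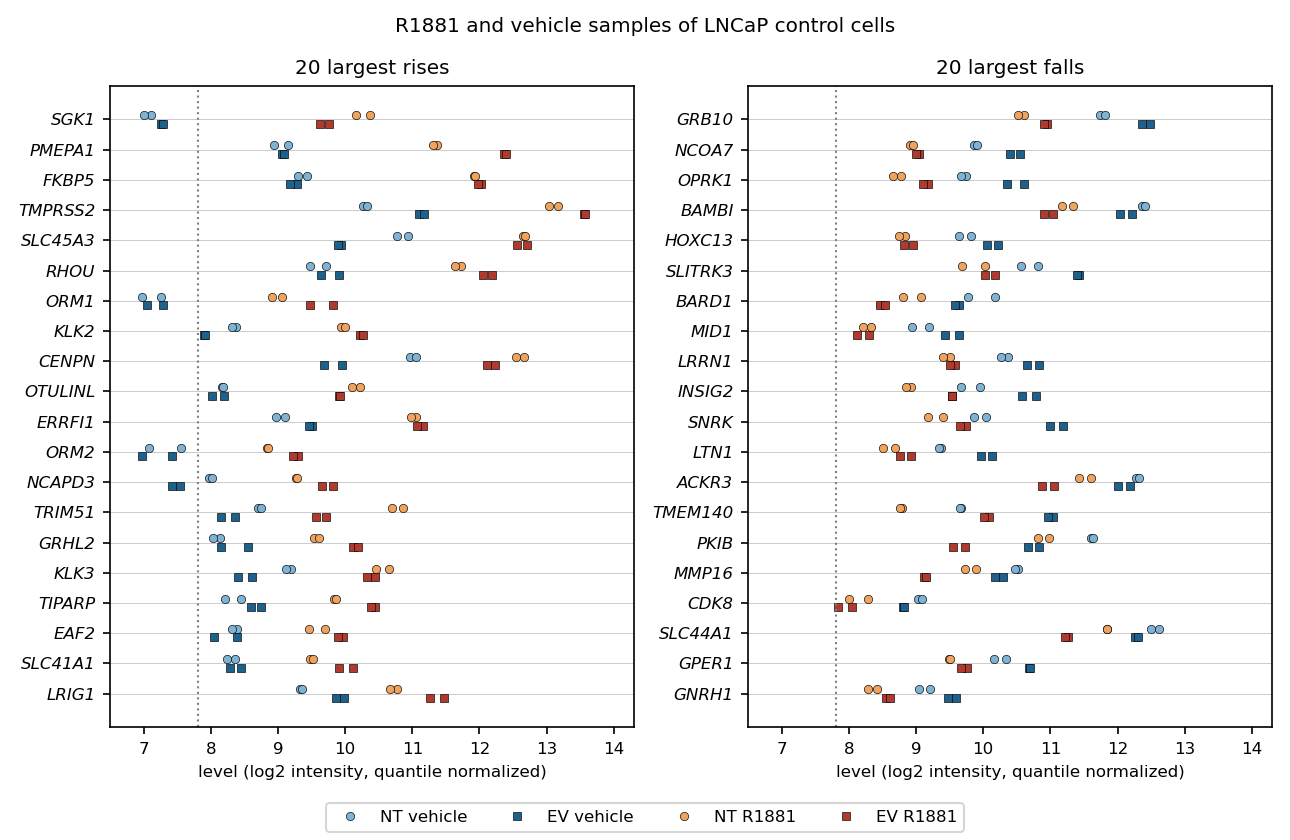
Level of each of the 8 samples (x axis, log2 intensity after quantile normalization) for the 20 genes with the largest rises (left) and the 20 with the largest falls (right); circles are NT and squares EV samples, and the dotted line is the background level of 7.80 log2. Blue vehicle points and orange or red R1881 points do not overlap within NT or within EV for any of the 40 genes, which the choice of the genes required.

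Among the other large rises were those of the small GTPase RHOU (2.22 log2, 4.65-fold) and the acute phase plasma proteins ORM1 and ORM2. ORM1 stood at 8.92, 9.06, 9.82 and 9.47 log2 in R1881 samples and between 6.98 and 7.29 log2 in vehicle samples, a rise of at least 2.85-fold, and ORM2 rose at least 2.38-fold. The sequences of ORM1 and ORM2 are near-identical, so their probes cannot be taken as separate. CENPN, a kinetochore protein, was at 12.67 and 12.55 log2 against 10.97 and 11.06 log2 in NT cells and at 12.23 and 12.11 log2 against 9.96 and 9.69 log2 in EV cells (1.97 log2, 3.92-fold). NCAPD3, a condensin II subunit, rose by 1.76 log2. The remaining genes among the 20 largest rises were OTULINL (1.90 log2), ERRFI1, an inhibitor of the EGF receptor (1.80 log2, 3.48-fold), TRIM51 (1.72 log2), the epithelial transcription factor GRHL2 (1.64 log2), the ADP-ribosyltransferase TIPARP (1.63 log2), the elongation factor EAF2 (1.46 log2), the magnesium transporter SLC41A1 (1.41 log2), LRIG1, which also limits EGF receptor signalling (1.41 log2), and the kallikreins KLK2 and KLK3.

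The kallikreins are secreted serine proteases encoded in 1 cluster on chromosome 19. Of 15 measured 3 were called, all higher, a share of 20% beside 2.97% of all genes and 5.53% of genes above background. KLK3 read 10.46 and 10.66 log2 with R1881 and 9.20 and 9.12 log2 with vehicle in NT cells, and 10.44 and 10.33 log2 against 8.61 and 8.41 log2 in EV cells. KLK2 read 9.93 and 9.99 log2 against 8.38 and 8.31 log2 in NT cells and 10.22 and 10.27 log2 against 7.90 and 7.92 log2 in EV cells. For both genes the R1881 samples of NT and EV lay close together and the vehicle samples were lower in EV than in NT. KLK3 rose by 1.64 log2 (3.11-fold, SE 0.09, adjusted p = 1.57e-13) and KLK2 by 1.98 log2 (3.94-fold, SE 0.09, adjusted p = 1.82e-15). KLK4 went from 12.72, 12.75, 12.89 and 12.99 log2 to 13.40, 13.56, 14.25 and 14.20 log2, a rise of 1.01 log2.

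Along the chromosome, in the gene order of the RefSeq annotation, the called genes of the cluster lay in a short stretch. KLK15, next to KLK3 on one side, differed by 0.37 log2 without passing the test (adjusted p = 0.151), and KLK1 beyond it by 0.00 log2. KLKP1, a pseudogene between KLK2 and KLK4, was higher by 0.43 log2 (adjusted p = 0.0344), at least 1.10-fold since its vehicle samples lay under background. Past KLK4, none of the 10 kallikreins from KLK5 to KLK14 was called, with differences from -0.12 to 0.30 log2, and 10 of the 10 had mean levels under background, the level above which a signal was taken as measured. On the other side of KLK1, the non-coding gene C19orf48P rose by 1.37 log2 (SE 0.07, adjusted p = 5.77e-14), and its 3 probes were all called higher. The neighbours KLKP1 and KLK15 were named after their values were seen.

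The promoters of KLK3, KLK2 and FKBP5 are shown because these genes were among the 20 largest rises and their promoters held a match to the consensus of the receptor's binding site. The consensus searched was the half-site AGAACA, 3 bases of any kind and the half-site TGTTCT, on both strands, with up to 3 mismatches at its 12 fixed letters, in RefSeq promoters from 250 bases before to 50 bases after the gene start. Of the 20 genes with the largest rises 17 had such a promoter, and 4 of these held a match (KLK3, KLK2, FKBP5 and TRIM51). Of the 20 genes with the largest falls 15 had such a promoter, and 2 of these held a match (LTN1 and NCOA7). The share over all genes is given below. Capitals mark the match in each 95-base piece, given 5′ to 3′ on the strand of the gene in GRCh38.p14. The KLK3 piece is on the plus strand at chr19:50854705-50854799, the KLK2 piece on the plus strand at chr19:50873223-50873317 and the FKBP5 piece on the minus strand at chr6:35728739-35728833.
KLK3: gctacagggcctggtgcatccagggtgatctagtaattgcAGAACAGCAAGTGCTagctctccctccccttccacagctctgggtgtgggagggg
KLK2: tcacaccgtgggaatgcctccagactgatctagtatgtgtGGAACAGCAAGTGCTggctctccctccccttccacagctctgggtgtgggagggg
FKBP5: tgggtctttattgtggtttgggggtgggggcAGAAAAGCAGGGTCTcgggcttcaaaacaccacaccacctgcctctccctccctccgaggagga

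Counted from 1 at the 5′ end of the consensus, the KLK3 match carries T10A and T13G, the KLK2 match carries A1G, T10A and T13G, and the FKBP5 match carries C5A, T10G and T12G. They begin 170, 176 and 219 bases before the gene start. The share of promoters with such a match was then counted over all genes: 6.62% of 272 promoters of genes called higher and 5.29% of 208 of genes called lower held one, beside 8.0% of 15034 promoters of measured genes and 5.98% of 7929 of genes above background. A match is a description of letters in a window of 300 bases, and sites farther from the gene start were not searched.

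Of 55 measured genes known from other work to be induced by androgen, 40 were called higher and 1 lower, with a median of 0.60 log2 beside -0.01 log2 over all genes. Called genes were 74.5% of the list, beside 2.97% of all genes and 5.53% of genes above background. The list was written with earlier results of these data known. Besides the genes above it held the tumour-associated NDRG1, whose samples with R1881 stood at 11.98, 12.05, 12.42 and 12.51 log2 and whose vehicle samples stood at 10.68, 10.66, 11.04 and 10.98 log2. The groups of NDRG1 did not overlap, and its rise was 1.40 log2 (2.64-fold, SE 0.09, adjusted p = 2.44e-12). ZBTB16, a zinc finger repressor, rose by 1.24 log2. The 1 member that was lower, TSC22D3 or GILZ, a leucine zipper protein that glucocorticoids induce in many cells, differed by -0.72 log2 and is named after its value was seen.

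Genes that respond to glucocorticoids as well as to androgens behaved in more than 1 way. Of 20 measured, 8 were higher and 3 lower, with a median of 0.07 log2. This made 55% called, beside 2.97% of all genes and 5.53% of genes above background. SGK1, FKBP5, ERRFI1, ZBTB16 and NFKBIA, the inhibitor of NF-kappaB, rose, NFKBIA by 1.23 log2 (SE 0.09, adjusted p = 1.13e-10). Of the 3 lower genes 1, DUSP1, rested on the vehicle samples of EV cells described further on. NR3C1, the glucocorticoid receptor, lay under background, between 6.80 and 7.39 log2 in all 8 samples.

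Of 17 measured genes known as repressed by androgen, 7 were lower and 0 higher, with a median of -0.32 log2. These 7 were 41.2% of the list, whereas 1.32% of all genes and 2.47% of genes above background were called lower. Like the induced genes, this list was chosen with earlier results of these data known. OPRK1, the kappa opioid receptor, fell to 8.66, 8.77, 9.17 and 9.10 log2 with R1881 from 9.74, 9.68, 10.36 and 10.61 log2 with vehicle. ACKR3, an atypical chemokine receptor, fell to 11.60, 11.43, 11.05 and 10.88 log2 from 12.27, 12.32, 12.19 and 12.004 log2. In both genes every R1881 sample lay below every vehicle sample, and the falls were -1.17 log2 (SE 0.09) and -0.95 log2 (SE 0.09), with adjusted p of 4.46e-10 and 1.63e-08. CAMK2N1, an inhibitor of the kinase CaMKII, fell by 0.48 log2.

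UGT2B15 and UGT2B17 are enzymes that inactivate androgens by adding glucuronic acid. They were the 2 of 7 measured members of their family that were called, and both were lower. This is 28.6% of the family, beside 2.97% of all genes and 5.53% of genes above background. UGT2B15 was between 9.78 and 10.01 log2 with R1881 and between 10.24 and 10.70 log2 with vehicle (-0.61 log2, SE 0.10, adjusted p = 0.000182), and UGT2B17 differed by -0.50 log2 (adjusted p = 0.00632). UGT2B11 differed by -0.34 log2 and was not called (adjusted p = 0.198). The sequences of this family are alike, so the probes may share signal, and the call of UGT2B17 was lost without replicate 1 of the R1881-treated NT cells (adjusted p = 0.0712).

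Among called genes above background whose groups did not overlap within NT or EV, the largest fall was that of GRB10, an adaptor that binds and restrains the insulin receptor. It stood at 10.61 and 10.52 log2 with R1881 and 11.74 and 11.81 log2 with vehicle in NT cells, and at 10.95 and 10.91 log2 against 12.37 and 12.49 log2 in EV cells. The 2 groups were apart in both vectors, and the fall was -1.35 log2, or 2.55-fold (SE 0.09, adjusted p = 2.45e-12). NCOA7, a nuclear receptor coactivator, fell 2.30-fold (-1.20 log2, SE 0.08, adjusted p = 3e-12), from 9.86, 9.91, 10.40 and 10.54 log2 to 8.91, 8.96, 9.04 and 9.01 log2. BAMBI, a decoy receptor that blocks TGF-beta and BMP signals, fell by 1.14 log2 (2.20-fold), and the homeobox gene HOXC13 by 1.10 log2.

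The other genes of the 20 largest falls covered several functions. Among them were neuronal membrane proteins with leucine-rich repeats, SLITRK3 (-1.08 log2) and LRRN1 (-1.03 log2). BARD1, the partner of BRCA1, was lower by 1.07 log2, the ubiquitin ligases MID1 and LTN1 by 1.06 and 0.98 log2, and INSIG2, which holds the sterol sensor SCAP in the endoplasmic reticulum, by 1.03 log2. SNRK, a kinase related to AMPK (-1.02 log2), PKIB, an inhibitor of protein kinase A (-0.92 log2), the mediator kinase CDK8 (-0.89 log2), the metalloproteinase MMP16 (-0.90 log2), TMEM140 (-0.92 log2) and the choline transporter SLC44A1 (-0.88 log2) were lower too. The G protein-coupled estrogen receptor GPER1 (-0.86 log2) and GNRH1, the gonadotropin-releasing hormone (-0.86 log2), closed the set. Of 3 probes for GPER1 2 were called lower and 1 above background was not.

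Transcription factors that work with the androgen receptor moved in both directions. Of 24 measured pioneer factors and coregulators, 2 were higher and 3 lower, with a median of -0.08 log2. GRHL2 went from 8.14, 8.04, 8.16 and 8.55 log2 to 9.53, 9.61, 10.11 and 10.19 log2, and the ETS factor SPDEF from 10.25, 10.22, 10.11 and 10.22 log2 to 10.80, 10.86, 11.58 and 11.23 log2 (0.91 log2, SE 0.10, adjusted p = 5.05e-07). Both had all R1881 samples above all vehicle samples. GATA2, a zinc finger factor, showed the opposite, with 9.40, 9.43, 9.43 and 9.64 log2 against 10.13, 10.02, 10.51 and 10.45 log2 (-0.80 log2, SE 0.08, adjusted p = 1.5e-07). FOXA1, the pioneer factor that opens chromatin for the receptor, differed by -0.02 log2 (SE 0.07, adjusted p = 0.98), its 8 samples lying between 12.95 and 13.23 log2. HOXB13, a homeobox factor of prostate cells, was lower by 0.53 log2 (adjusted p = 0.00544), and NCOA1, a p160 coactivator, by 0.42 log2 (adjusted p = 0.00114). The call of HOXB13 was lost without replicate 1 of the R1881-treated NT cells or without replicate 2 of the vehicle-treated EV cells (adjusted p of 0.0715 and 0.0541).

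Among the 28 genes of a list of ETS factors, the family to which GABPA belongs, 3 were higher and 2 lower (ELF3 and ETV6). The median was -0.02 log2, and the called share was 17.9%, beside 2.97% of all genes and 5.53% of genes above background. The higher ones were SPDEF, ELF2 and GABPB1, the last a partner of GABPA that the list held and not itself an ETS factor. GABPA, the subunit of GABP that binds DNA, read 8.11, 7.88, 8.05 and 7.99 log2 with R1881 and 8.31, 8.01, 8.28 and 7.92 log2 with vehicle. The groups of GABPA overlapped, and the difference of -0.12 log2 (SE 0.11) did not pass the test (adjusted p = 0.847). Its partner GABPB1 was between 8.94 and 9.16 log2 with R1881 and between 8.33 and 8.79 log2 with vehicle, a rise of 0.47 log2 (SE 0.09, adjusted p = 0.00157), although 2 other of its 4 probes above background were not called. ELF2 rose by 0.79 log2 and the epithelial factor ELF3 fell by 0.53 log2. The call of ETV6 (-0.38 log2) was lost on leaving out any of 6 of the 8 samples, with adjusted p from 0.0538 to 0.185. Of 10 genes that the study linked to castration-resistant disease, a list chosen partly on these samples and so no independent evidence, 1 was called, the enoyl-CoA isomerase ECI2 (0.73 log2).

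**Figure D2:**
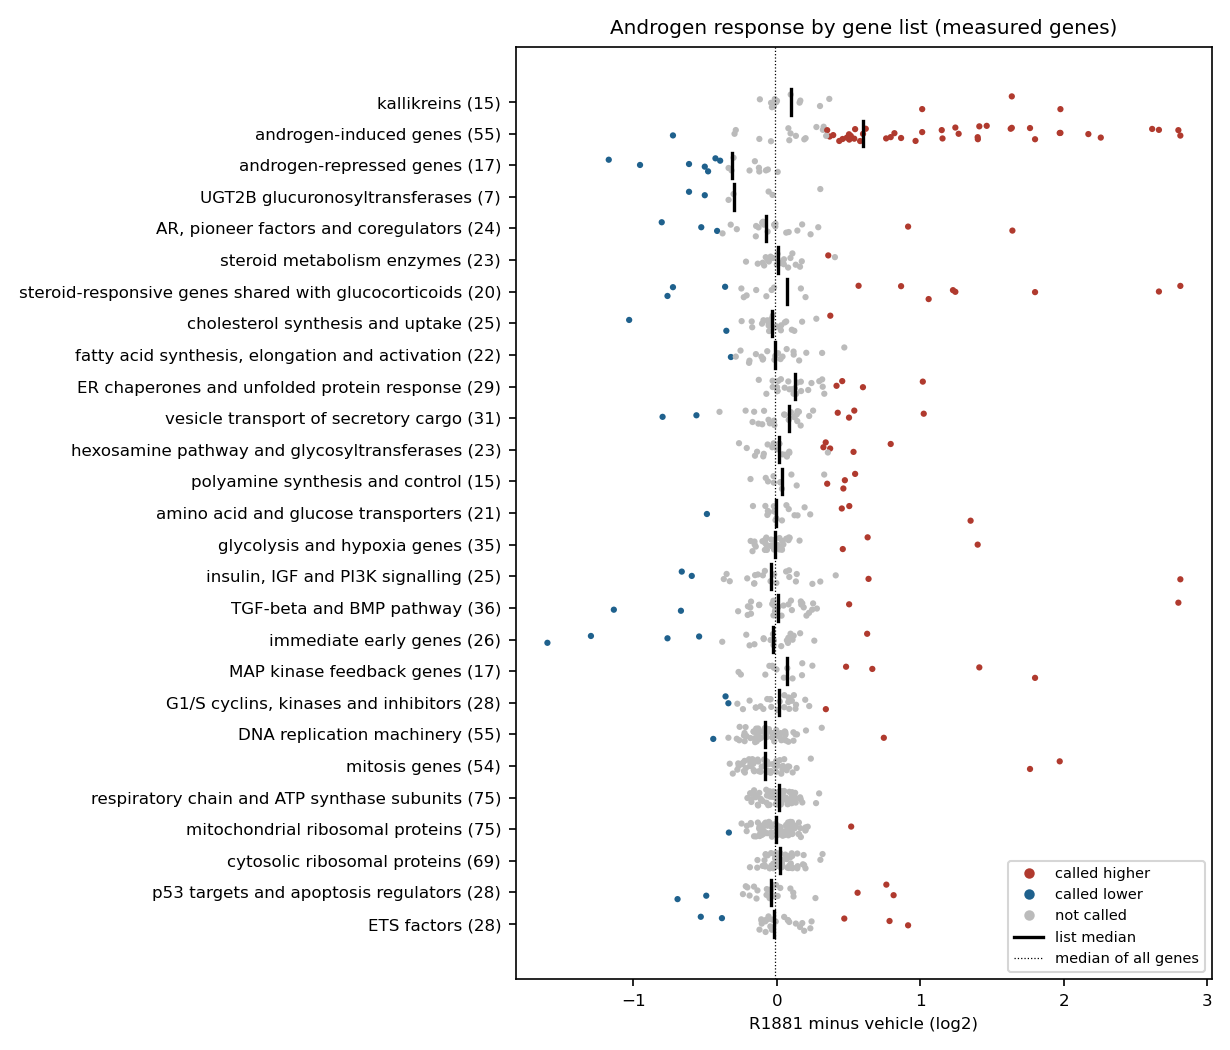
Difference between R1881 and vehicle (x axis, log2) for each measured gene of 27 lists, whose number of measured genes is given in brackets; red points were called higher, blue points lower and grey points were not called, and black bars are list medians. The androgen-induced list has its median at 0.60 log2 and the androgen-repressed list at -0.32 log2, whereas the other lists shown have medians between -0.30 and 0.13 log2.

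Genes of the secretory pathway were higher in part. Of 29 genes of the endoplasmic reticulum and its unfolded protein response, 4 were higher and 0 lower. This was 13.8% called, beside 2.97% of all genes and 5.53% of genes above background. In this list 25 genes had a difference above 0, with a median of 0.13 log2. Over all 20046 genes 9358 had a difference above 0, with a median of -0.01 log2. DNAJB9, a co-chaperone of BiP, stood at 10.11, 9.92, 10.51 and 10.60 log2 with R1881 and at 9.12, 9.17, 9.47 and 9.31 log2 with vehicle (1.02 log2, SE 0.09, adjusted p = 3.62e-09). The disulphide isomerase PDIA5 (0.60 log2), the secreted factor MANF (0.46 log2) and the stress sensor ERN1 (0.42 log2) were the other 3. The level of ERN1 lay under background in all 8 samples, and its call was lost when any of 4 samples was left out (adjusted p from 0.0531 to 0.132).

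Within the machinery of vesicle transport the 2 RAB27 paralogues, small GTPases that dock secretory vesicles, went opposite ways. RAB27A rose by 1.02 log2 (SE 0.10, adjusted p = 3.15e-08), from 7.90, 8.37, 8.46 and 8.32 log2 to 8.82, 9.18, 9.50 and 9.64 log2. RAB27B fell by 0.80 log2 (SE 0.08, adjusted p = 2.62e-08), from 8.75, 8.66, 8.99 and 8.96 log2 to 8.12, 8.11, 7.99 and 7.96 log2. SYTL2, an effector that binds RAB27 proteins, was also lower (-0.56 log2), with 1 of its 3 probes called and 2 others above background not. RAB3B, a GTPase of exocytosis (0.54 log2), and TPD52, a vesicle protein overexpressed in prostate tumours (0.50 log2), were higher. In all, 4 of the 31 genes of this list were higher and 2 lower, with a median of 0.08 log2.

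Enzymes of sugar and polyamine supply rose in small numbers. Among 23 genes of the hexosamine pathway and of protein glycosylation 5 were higher and 0 lower, with a median of 0.02 log2. UAP1, which makes UDP-N-acetylglucosamine, rose from 10.33, 10.19, 9.78 and 10.18 log2 to 11.19, 10.74, 10.88 and 10.86 log2 (0.79 log2, SE 0.13, adjusted p = 0.000324), and GCNT1, a glycosyltransferase, rose by 0.53 log2. The others were NANS (0.37 log2), B4GALT1 (0.34 log2) and UGDH (0.32 log2), whose calls were lost on leaving out replicate 2 of the R1881-treated NT cells, any of 6 and any of the 8 samples (adjusted p up to 0.0546, 0.252 and 0.174). Of 15 polyamine genes 4 were higher and 0 lower. ODC1, the ornithine decarboxylase that starts polyamine synthesis, stood between 13.08 and 13.17 log2 with R1881 and between 12.32 and 12.75 log2 with vehicle (0.55 log2, SE 0.08, adjusted p = 0.000139). ARG2, the mitochondrial arginase (0.47 log2), SAT1, a polyamine acetylase (0.46 log2), and SMS, the spermine synthase (0.35 log2), were the others, and the call of SMS was lost when any of 4 samples was left out (adjusted p from 0.098 to 0.147).

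Glucose transporters were among the called transporters. SLC2A3, or GLUT3, read 8.05, 7.996, 8.01 and 7.56 log2 with R1881 and 6.64, 6.56, 6.41 and 6.61 log2 with vehicle. All vehicle samples were under background, which gives a rise of at least 1.07-fold, and the fitted difference was 1.35 log2 (SE 0.10, adjusted p = 3.69e-11). Of 21 amino acid and glucose transporters 3 were higher and 1 lower, with a median of 0.00 log2. SLC2A12, or GLUT12, rose by 0.50 log2 and the lysosomal amino acid transporter SLC36A1 by 0.45 log2, and SLC7A5, a transporter of large neutral amino acids, fell by 0.49 log2. The call of SLC36A1 was lost without replicate 2 of the vehicle-treated NT cells or replicate 2 of the R1881-treated EV cells (adjusted p of 0.0895 and 0.0645). Of 35 genes of glycolysis and hypoxia 3 were higher and 0 lower, with a median of -0.02 log2. They were NDRG1, ANKRD37 (0.63 log2) and the vascular growth factor VEGFA (0.46 log2), the last with 1 of its 3 probes called and a call lost on leaving out any of the 8 samples (adjusted p from 0.0695 to 0.171).

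Genes of lipid synthesis were counted in 2 lists. Among 25 measured genes of cholesterol synthesis and uptake 1 was higher, the desaturase SC5D (0.37 log2), and 2 lower, INSIG2 and INSIG1 (-0.35 log2), and among 22 genes of fatty acid synthesis 1 was lower, the desaturase SCD (-0.32 log2), with medians of -0.04 and -0.01 log2. The called shares were 12% and 4.55%, beside 2.97% of all genes and 5.53% of genes above background. Most genes of both lists lay above background. Fatty acid synthase, FASN, differed by -0.02 log2 (SE 0.09, adjusted p = 0.986). The calls of SC5D, INSIG1 and SCD were lost when any of 4, 7 and 4 samples was left out (adjusted p up to 0.123, 0.188 and 0.216). Of 23 steroid metabolism enzymes 1 was higher, HSD17B4 of peroxisomal beta-oxidation (0.36 log2, adjusted p = 0.00911), a call lost without replicate 1 of the vehicle-treated NT or EV cells or replicate 2 of the R1881-treated EV cells (adjusted p up to 0.0662).

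Genes of growth factor signalling were called in both directions. In the MAP kinase feedback list 4 of 17 were higher and 0 lower, namely ERRFI1, LRIG1, the RAS inhibitor SPRED1 (0.67 log2, SE 0.08, adjusted p = 3.12e-06) and the phosphatase DUSP4 (0.48 log2). The call of DUSP4, which lay under background, was lost on leaving out any of 4 samples (adjusted p up to 0.28). Of 25 genes of insulin and PI3K signalling 2 were higher, SGK1 and the adaptor IRS2 (0.64 log2), and 2 lower, the regulatory subunit PIK3R1 (-0.66 log2, SE 0.09, adjusted p = 1.15e-05) and DEPTOR, an inhibitor of mTOR (-0.59 log2). PIK3R1 had 5 probes, of which 1 was called. PRKAA1, a catalytic subunit of AMPK, was the 1 of 25 genes of AMPK and autophagy that was called (-0.64 log2). In the TGF-beta and BMP pathway 2 of 36 were higher, PMEPA1 and the receptor BMPR1B (0.50 log2), and 2 lower, BAMBI and ID3, which sequesters helix-loop-helix proteins (-0.67 log2).

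Cell cycle genes were counted in 3 lists. Of 55 genes of DNA replication 1 was higher and 1 lower, of 54 mitosis genes 2 were higher and 0 lower, and of 28 genes of the G1/S transition 1 was higher and 2 lower, with medians of -0.08, -0.08 and 0.01 log2. The called shares were 3.64%, 3.7% and 10.7%, beside 2.97% of all genes and 5.53% of genes above background. Most genes of the 3 lists lay above background. The replication genes were ORC5, an origin recognition subunit, which rose from 10.45, 10.42, 10.09 and 10.17 log2 to 11.12, 11.10, 10.97 and 10.91 log2 (0.75 log2, SE 0.07, adjusted p = 3.43e-08), and the chromatin assembly factor CHAF1B (-0.44 log2). The 2 mitosis genes were CENPN and NCAPD3, and the other 52 of the list differed by at most 0.33 log2 in size. KIF22, a mitotic kinesin that this list did not hold, rose by 1.30 log2 (limma, adjusted p = 7.38e-13). CDC25A, a phosphatase that activates CDK2 (0.34 log2), and the inhibitors CDKN1B, or p27 (-0.36 log2), and RBL2, or p130 (-0.34 log2), had calls that were lost on leaving out any of 5, 7 and 7 samples (adjusted p up to 0.129, 0.233 and 0.325). Another probe for CDKN1B, at 9.22 log2, differed by 0.0022 log2 (adjusted p = 0.9988). NCOA1, ORC5, SMS, TNFRSF10B and TPD52 likewise each had 1 other probe above background that was not called. Respiratory chain and ATP synthase subunits (0 of 75 called) and cytosolic ribosomal proteins (0 of 69) lay between -0.21 and 0.32 log2, with 6 and 6 genes at an unadjusted p under 0.05 by limma.

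Among p53 targets and regulators of apoptosis 3 of 28 were higher and 2 lower, with a median of -0.04 log2. TNFRSF10B, the death receptor DR5 (0.76 log2, SE 0.09, adjusted p = 1.11e-06), the BH3-only protein PMAIP1 or NOXA (at least 1.43-fold, fitted 0.81 log2) and the phosphatase PPM1D (0.56 log2) were higher, whereas TP53INP1 (-0.69 log2) and the sestrin SESN1 (-0.49 log2) were lower. In the list of adhesion and invasion genes 3 of 42 were higher and 0 lower, and these were the laminin chain LAMC1 (1.01 log2, SE 0.08, adjusted p = 5.98e-10), the helix-loop-helix factor TWIST1 (0.71 log2) and the tight junction protein CLDN8 (0.66 log2). LAMC1 stood at 11.46, 11.63, 11.47 and 11.32 log2 with R1881 and at 10.50, 10.43, 10.36 and 10.54 log2 with vehicle. B2M, the light chain of MHC class I, was the 1 of 37 interferon and antigen presentation genes that was higher (0.53 log2). IRF1, which lay near background, was the 1 that was lower (-0.43 log2, adjusted p up to 0.123 without any 1 of 4 samples). The called shares of the p53, adhesion and interferon lists were 17.9%, 7.14% and 5.41%. They stand beside 2.97% of all genes and 5.53% of genes above background.

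The counts of the remaining lists stand beside the 2.97% of all genes and 5.53% of genes above background that were called. Among 29 Wnt pathway genes 0 were higher and 3 lower (10.3%), the ligand WNT5A, which was under background in all 8 samples, the receptor FZD3 (-0.43 log2) and the transcription factor SOX9 (-0.40 log2), with a median of 0.02 log2. The call of WNT5A was lost without replicate 1 of the R1881-treated EV cells (adjusted p = 0.0551), that of FZD3 without any of 4 samples (adjusted p up to 0.108), and that of SOX9 without replicate 1 of the R1881-treated NT or EV cells or replicate 2 of the vehicle-treated EV cells (adjusted p up to 0.101). Of 31 genes of the integrated stress response 1 was higher, the lipoprotein receptor VLDLR (at least 1.30-fold, fitted 0.53 log2), and 2 lower, SLC7A5 and DDIT3 (9.68%), with a median of -0.11 log2. The call of DDIT3 was lost without any of 7 samples (adjusted p from 0.0937 to 0.236). Of 18 circadian clock genes 1 was higher, the repressor CRY2 (0.42 log2), and of 24 neuronal and neuroendocrine genes 1, the tubulin TUBB3 (0.38 log2), shares of 5.56% and 4.17%. The call of CRY2 was lost without replicate 2 of the R1881-treated NT cells or replicate 1 of the vehicle-treated EV cells (adjusted p of 0.0819 and 0.0586), and that of TUBB3 without any of 5 samples (adjusted p up to 0.108). Ribosome biogenesis factors (1 higher, RCL1, and 1 lower, DKC1, of 36) and mitochondrial ribosomal proteins (1 higher, MRPS18A, and 1 lower, MRPS6, of 75) had medians of 0.00 log2 and called shares of 5.56% and 2.67%. The calls of RCL1 and MRPS6 were lost without any of 7 and 6 samples (adjusted p up to 0.122 and 0.169). Of the luminal markers 5 of 13 were higher and 1 lower.

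The immediate early genes showed where the 2 control lines parted. Of 26 measured, 4 were called lower, FOS, EGR1, DUSP1 and FOSB, and 1 higher, KLF6 (0.63 log2, SE 0.09, adjusted p = 5.68e-05). FOS, a subunit of AP-1, was at 9.60 and 10.02 log2 in the vehicle samples of EV cells and between 6.62 and 6.94 log2 in the other 6. EGR1, a growth-induced zinc finger factor, was at 10.20 and 10.92 log2 in these 2 samples and between 7.62 and 8.11 log2 in the other 6, and DUSP1, a MAP kinase phosphatase, at 10.84 and 11.28 log2 against 9.36 to 9.83 log2. FOS lay under background in all R1881 samples, so that its fall was at least 1.47-fold. The fitted falls of -1.60, -1.30 and -0.76 log2 averaged over both lines thus came mostly from EV cells, where they were -3.07, -2.50 and -1.25 log2, and NT cells gave -0.13, -0.10 and -0.28 log2. The difference between the responses of EV and NT cells was called for all 3 (limma, adjusted p = 2.81e-10, 3.21e-07 and 0.0272).

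The same 2 vehicle samples of EV cells stood apart in non-coding RNA. RNA28SN5, which encodes the 28S ribosomal RNA, read 10.69 and 10.96 log2 in them and between 8.11 and 8.58 log2 in the other 6 samples, and RN7SK, the 7SK RNA that holds the elongation factor P-TEFb, read 9.02 and 9.38 log2 against 7.54 to 8.12 log2. Both differed in response between the lines, by -2.47 log2 (adjusted p = 9.14e-07) and -1.51 log2 (adjusted p = 0.00174). Of 18 measured genes of ribosomal, 7SK, signal recognition and small nuclear RNAs, RNA28SN5 was the 1 called in the androgen response. The RN7SK probe used here differed by -0.40 log2 and was not called (limma, adjusted p = 0.0913). Another RN7SK probe, at 7.86 log2, was called lower (-0.46 log2, limma, adjusted p = 0.0217). RNA28SN5 and RN7SK were thus high in the same 2 samples as the immediate early genes, and their part in those values was not tested. The response in EV minus that in NT was -1.30 log2 for RNA18SN5 and -0.36 log2 for RNA5S9, for the 18S and 5S ribosomal RNAs. Both had the sign of RNA28SN5 and RN7SK but were not called (limma, adjusted p of 0.129 and 0.827). RNA18SN5 read 9.97 log2 in replicate 1 of the vehicle-treated EV cells and 8.70 and 8.77 log2 in vehicle-treated NT cells. Its R1881 samples lay between 9.31 and 9.57 log2. RNA18SN5 and RNA5S9 were named outside the rule for naming genes. Without EV cells, the response was -0.13 log2 for FOS, -0.10 log2 for EGR1 and 0.044 log2 for RNA28SN5, none of them called, and DDIT3, a stress factor called lower over both lines (-0.35 log2), gave 0.065 log2.

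**Figure D3:**
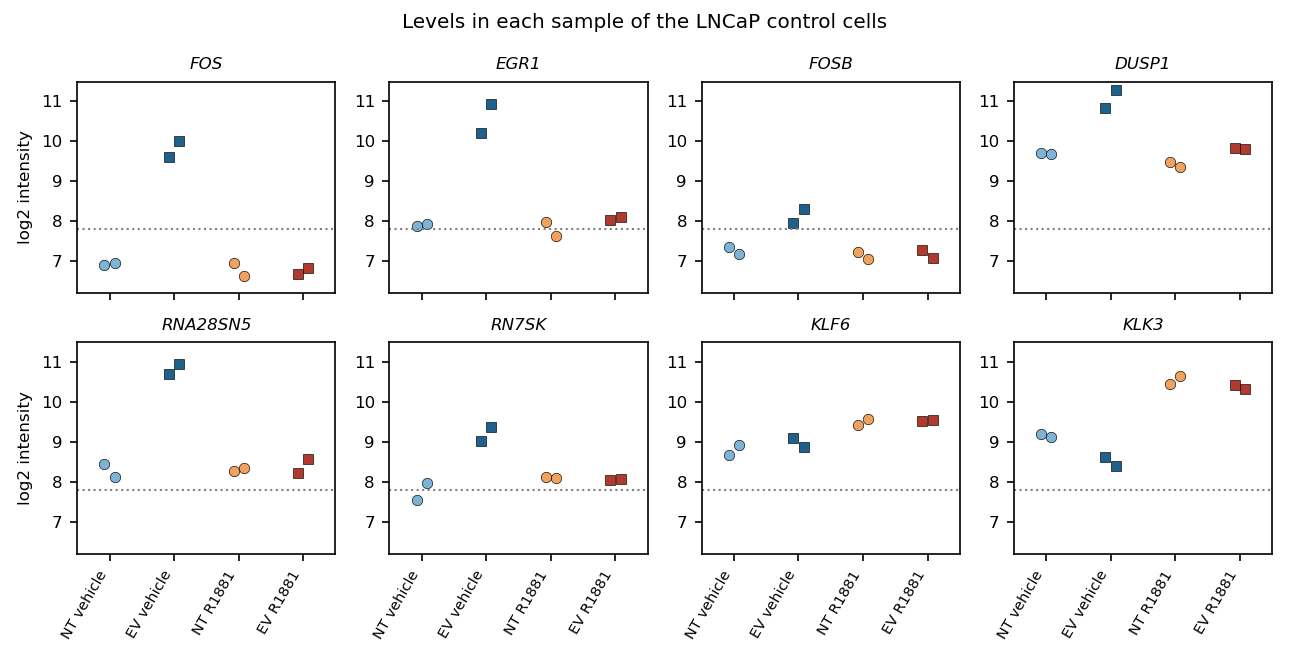
Level in each sample (y axis, log2 intensity) of 8 genes, with 2 samples for each group on the x axis (circles NT, squares EV; the dotted line is the background level of 7.80 log2). FOS, EGR1, FOSB, DUSP1, RNA28SN5 and RN7SK are highest in the 2 vehicle samples of EV cells, whereas KLF6 and KLK3 are higher in all 4 R1881 samples.

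The difference between the responses of EV and NT cells was called for 9 genes of 20046 (0.0449%), whereas 1247 had an unadjusted p under 0.05, and 4 of the 9 were genes that R1881 raised in both lines. C19orf48P rose by 0.88 log2 in NT cells and by 1.86 log2 in EV cells (adjusted p of the difference 0.00201). KIF22, a kinesin of the mitotic spindle, rose by 0.83 and 1.76 log2 (adjusted p = 0.00787), and NCAPD3 by 1.28 and 2.25 log2 (adjusted p = 0.0207). In these 3 genes the vehicle samples of EV cells were lower than those of NT cells and the R1881 samples of EV cells were higher. The fourth was TRIM49D2, whose fitted rise was larger in NT cells (1.49 log2) than in EV cells (0.55 log2), with all vehicle samples under background, and which was named after its values were seen.

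Over the 596 called genes the size of the response was larger in EV than in NT cells for 235 of 331 higher and 202 of 265 lower genes, with medians of 0.61 against 0.49 log2 and of 0.55 against 0.43 log2. The sign was the same in both lines for all but 2 called genes. With NT cells alone 267 genes were called, 170 higher and 97 lower, and with EV cells alone 427, 250 higher and 177 lower.

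**Figure D4:**
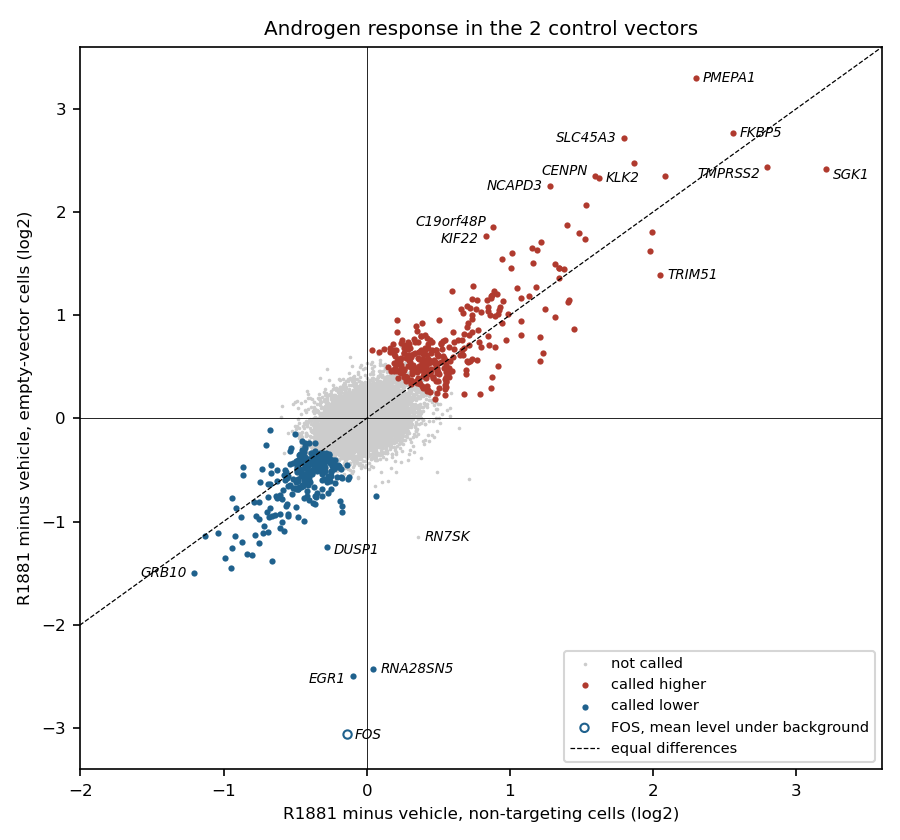
Difference between R1881 and vehicle in NT cells (x axis, log2) and EV cells (y axis, log2) for the 9674 genes above background and FOS; red and blue points are genes called higher and lower over both lines, and the dashed line marks equal differences. Most called genes lie near the line, whereas FOS (-0.13 and -3.07 log2), EGR1 and RNA28SN5 lie far below it.

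The other LNCaP lines of the series, which carried a hairpin against GABPA or the vector labelled for GABPA, had their own 8 samples with and without R1881 and shared none with the control cells. There R1881 changed 817 genes (4.08%), with 490 of them higher (2.44%) and 327 lower (1.63%). Of the 331 genes higher in control cells 327 had the same sign there and 289 (87.3%) were called higher, and of the 265 lower genes 257 had the same sign and 169 (63.8%) were called lower. None was called in the opposite direction, and the difference in response between these lines and the control cells was called for 0 genes by limma, with 1219 of 20046 at an unadjusted p under 0.05. The fall of FOS was seen in the lines labelled for GABPA in the pLVX vector (-2.66 log2) and not in the hairpin lines (0.33 log2).

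Control cells of the c42b line, which was derived from LNCaP and grows without androgen, were treated in the same way in 8 other samples. In these, R1881 changed 311 genes (1.55%), with 189 of them higher (0.943%) and 122 lower (0.609%). Of the genes called in LNCaP control cells 139 of 331 higher (42%) and 72 of 265 lower ones (27.2%) were called in the same direction in c42b, and 0 in the opposite one. The difference in response between the lines was called for 67 genes (0.334%), with 1428 at an unadjusted p under 0.05. Of these 67, 59 were called in LNCaP control cells, and the response was smaller in c42b for 58 of the 59. The LNCaP values chose these genes, so this direction is no independent sign that c42b responded less. The exception was NPPC, a natriuretic peptide, whose fitted difference was 0.95 log2 in LNCaP and 1.64 log2 in c42b. All LNCaP vehicle samples of NPPC were under background and so was its LNCaP R1881 mean, so these sizes are uncertain, and the gene was named after its values were seen.

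Among the largest rises, the difference between the lines was widest for ORM1 (2.17 log2 in LNCaP and 0.33 log2 in c42b, adjusted p of the difference 9.97e-08), ORM2 (1.80 and 0.26 log2) and TRIM51 (1.72 and 0.31 log2). TMPRSS2 (2.62 and 1.51 log2), PMEPA1 (2.80 and 1.69 log2), FKBP5 (2.66 and 2.08 log2), KLK2 (1.98 and 1.25 log2) and KLK3 (1.64 and 0.90 log2) also differed. For SGK1 the values were 2.81 and 2.97 log2 and for RHOU 2.22 and 2.29 log2, and neither difference passed the test (adjusted p of 0.86 and 0.96). Among the falls, GRB10 (-1.35 and -0.31 log2), NCOA7 (-1.20 and -0.20 log2) and SLITRK3 (-1.08 and 0.12 log2) differed, whereas BAMBI (-1.14 and -1.40 log2) and HOXC13 (-1.10 and -1.01 log2) did not pass the test. UGT2B15 was lower in LNCaP (-0.61 log2) and gave 0.20 log2 in c42b (adjusted p = 0.00166). The differences between the lines for FOS, EGR1, DUSP1, DDIT3 and RNA28SN5 rest on the vehicle samples of LNCaP EV cells described above.

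**Figure D5:**
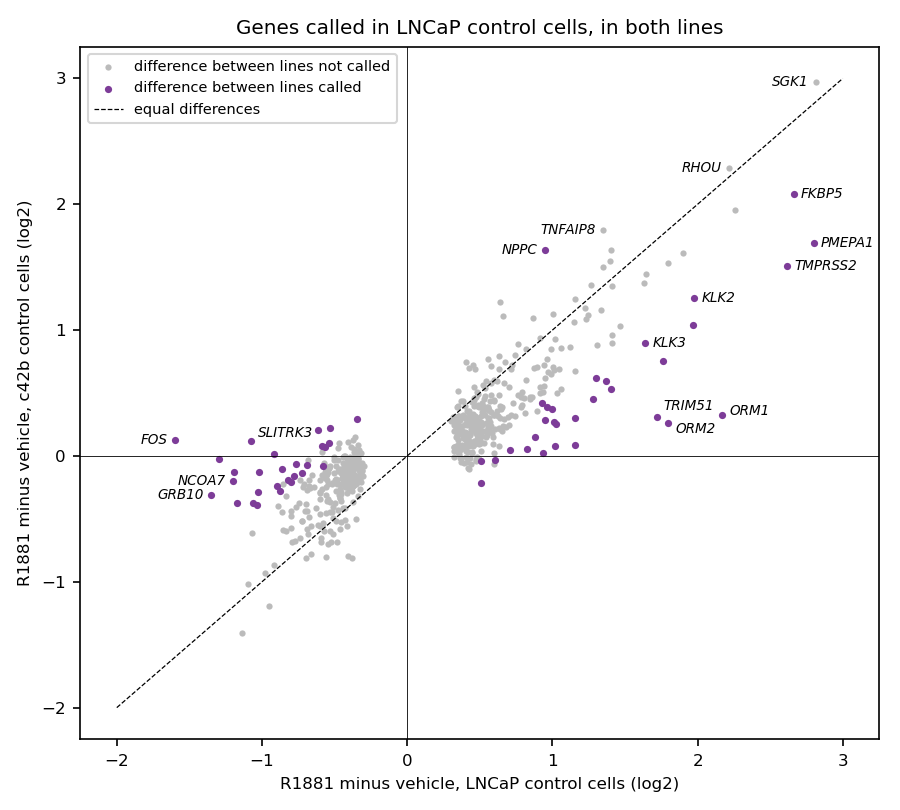
Difference between R1881 and vehicle in LNCaP control cells (x axis, log2) and c42b control cells (y axis, log2) for the 596 genes called in LNCaP; purple points are genes whose difference between the lines was called, and the dashed line marks equal differences. SGK1 and RHOU lie near the line, whereas ORM1, ORM2 and TRIM51 lie near 0.3 log2 in c42b.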

How the data were processed

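RNA of the 8 samples was hybridised to Illumina HumanHT-12 v4 BeadChips. Per the study's methods the authors removed spatial artefacts by means of BASH and HULK in beadarray. The intensity values deposited by the authors are per probe and not normalized, and the authors' own quantile normalized values, on the log2 scale, form another deposited table that served as an alternative. The read depth of sequencing has no counterpart here, and the number of arrays limits the precision: the median SE of the comparison was 0.097 log2. Intensities were not background corrected, so differences of dim genes are understated.

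Intensities were put on the log2 scale and quantile normalized over all 36 arrays (94 missing values were left missing), repeat arrays were averaged to 32 samples, and 1 mean for each of the 16 groups was fitted with limma 3.58.1 in R 4.3.3. The contrast of R1881 with vehicle was the mean of those in NT and EV cells. All groups shared the estimate of spread. P-values were adjusted by Benjamini-Hochberg over all probes and 6 comparisons. Each gene stands for 1 probe, the brightest on average, with symbols updated to RefSeq GRCh38.p14. The fit was tested on simulated data. Where all 4 samples of a side lay at or under background, the fold is a lower bound against that level.

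Genes were named by rule: the 20 highest and 20 lowest called differences above background without overlap within NT or EV, up to 5 called members of each of 41 lists and up to 2 of its brightest where under 3 were called, a fixed set, and the 8 smallest p-values by vector and between lines. Names outside this rule are marked as such. Members and lists were chosen with earlier results of these data known. Same-numbered replicates of the 4 groups were correlated in their deviations between -0.0844 and 0.0411, so the numbers were not taken to pair samples. The study's methods name the 2 vectors in the opposite order to the labels, and the labels were followed. Alternatives were the replicate block, normexp with an offset of 50, median centring, the authors' log2 table, probes above background only, other sets of samples, each vector alone, another threshold or probe rule, 2 motif mismatches, and leaving out each sample.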

Additional observations from a re-analysis of the deposited data

Results flagged for a closer look

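Of the named genes, 8 had a response to R1881 that differed between EV and NT cells by limma's test of the difference. The response in EV minus that in NT was -2.93 log2 for FOS (adjusted p = 2.81e-10), -2.40 log2 for EGR1, -2.47 log2 for RNA28SN5, -1.51 log2 for RN7SK and -0.966 log2 for DUSP1 (adjusted p = 0.0272), all of them genes whose 2 vehicle samples in EV cells stood apart. It was 0.97 log2 for C19orf48P, 0.934 log2 for KIF22 and 0.972 log2 for NCAPD3, which R1881 raised in both lines.

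The response differed between c42b and LNCaP control cells for 33 named genes. Since these were mostly named for their size in LNCaP, the direction of the difference was in part set by the choice. Among genes raised in LNCaP, c42b minus LNCaP was -1.84 log2 for ORM1 (adjusted p = 9.97e-08), -1.54 log2 for ORM2, -1.41 log2 for TRIM51, -1.11 log2 for PMEPA1 and -1.11 log2 for TMPRSS2, and -1.01 log2 for NCAPD3, -0.929 log2 for CENPN, -0.776 log2 for C19orf48P, -0.769 log2 for RAB27A, -0.744 log2 for KLK4, -0.74 log2 for KLK3, -0.724 log2 for KLK2, -0.677 log2 for KIF22, -0.661 log2 for TWIST1 and -0.581 log2 for FKBP5 (adjusted p = 0.0185). Among genes lowered in LNCaP it was 1.20 log2 for SLITRK3, 1.04 log2 for GRB10, 1.00 log2 for NCOA7, 0.929 log2 for PKIB, 0.90 log2 for SNRK, 0.816 log2 for UGT2B15, 0.797 log2 for OPRK1, 0.758 log2 for GNRH1, 0.746 log2 for INSIG2, 0.691 log2 for MID1, 0.658 log2 for MMP16, 0.645 log2 for LRRN1 (adjusted p = 0.0298) and 0.604 log2 for SLC44A1. For FOS (1.73 log2), EGR1 (1.27 log2), RNA28SN5 (1.06 log2), DUSP1 (0.701 log2) and DDIT3 (0.643 log2) the difference rested on the vehicle samples of LNCaP EV cells.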

How the results depend on the processing

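The 596 calls became 912 (442 higher and 470 lower) among probes above background only, where fewer probes are tested. They became 267 (170 higher and 97 lower) with NT cells alone and 427 (250 higher and 177 lower) with EV cells alone. Both compare 2 R1881 with 2 vehicle samples, and why their counts differ was not tested. Leaving out 1 of the 8 samples gave 474 to 517 calls, 273 to 299 higher and 200 to 220 lower. A fit of the 8 samples alone, with their own spread, called 465 genes (269 higher and 196 lower). It lost 18 named calls, among them FOSB and RNA28SN5 (limma, adjusted p of 0.0649 and 0.0652). The share of higher genes among the calls was 55.5% and ranged from 48.5% (probes above background only) to 63.7% (NT cells alone), with 55.8% on median centring. Genes whose response differed between EV and NT numbered 9, 17 among probes above background only and 5 to 8 without 1 sample, and between the lines 67, 126 and 53 to 64. The replicate numbers do not pair the samples, and the fit with the replicate block called 568 genes (320 higher and 248 lower). With 2 motif mismatches 0.368% of higher, 0.962% of lower and 0.911% of all measured promoters held a match. With NT cells alone 2 named genes reversed, DDIT3 at 0.065 log2 and RNA28SN5 at 0.044 log2, where neither was called, and the cause was not tested. Of 127 named calls 71 were kept under all alternatives and 100 in all fits without 1 sample. Leaving out 1 sample lost between 13 named calls (replicate 2 of the vehicle-treated NT or EV cells) and 18 (replicate 1 of the vehicle-treated EV cells). Signals near background limit what can be seen for the 10372 genes at or under it.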

Other observations

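Several genes outside the lists were picked once their values were seen, and they are given as values only. Related TRIM genes of chromosome 11, which lie in the RefSeq order as TRIM48 and TRIM51 and, farther along, TRIM49D1 next to TRIM49D2, were higher with R1881: TRIM51 by 1.72 log2, TRIM49D1 by 1.16 log2, TRIM49D2 by a fitted 1.02 log2 (at least 1.43-fold, its vehicle samples being under background) and TRIM48 by 0.88 log2, each called by limma. GRM5P1, a pseudogene that lies before TRIM48 in that order, was higher by 0.94 log2. TRIM49, TRIM49B, TRIM49C, TRIM64 and TRIM64C were not called, with differences from -0.09 to 0.17 log2. In c42b control cells the 5 called genes differed by 0.31 log2 or less and none was called. These genes are close copies of each other, so that probes of this family may share signal.

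Some genes of transcription factors, picked because they fell, were the following. PITX1 was lower by 0.85 log2 (adjusted p = 1.24e-08), IRX3 by 0.80 log2, ZIC2, a zinc finger factor of neural development, by 0.79 log2, MYT1 by 0.56 log2 and the LIM domain protein LMO4 by 0.59 log2, beside HOXC13 and HOXB13. In c42b cells PITX1 (-0.59 log2) and ZIC2 (-0.69 log2) were called lower and IRX3 (-0.20 log2), MYT1 (-0.16 log2) and LMO4 (-0.26 log2) were not called. In the NF-kappaB pathway the subunit NFKB1 was lower by 0.68 log2 while its inhibitor NFKBIA was higher. SOCS2, a suppressor of cytokine signalling (1.16 log2), TNFAIP8 (1.35 log2), GADD45G, a stress and growth arrest gene (1.31 log2), the arylamine acetyltransferase NAT1 (1.23 log2) and the lysophosphatidic acid receptor LPAR3 (1.04 log2) were higher. Of 17118 probes with no gene in the annotation used here, 149 were called, 105 higher and 44 lower. This was a smaller share than the 899 called among all 47231 probes.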
